A study of Mus musculus with 32 samples.

Results

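The complement system was examined here through 9 genes, taken by name: the classical pathway subunits C1qa, C1qb and C1qc, the central components C3 and C4b, the anaphylatoxin receptors C3ar1 and C5ar1, and the complement receptor 3 chains Itgam and Itgb2. They are 9 of the 74021 genes listed for sorted microglia and for spinal cord, and of the 74016 listed for staged microglia, and all 9 passed the filter on low counts in each of these 3 experiments. RNA-seq was made from 32 libraries of SOD1G93A mice, which carry the mutant human SOD1 transgene and are a model of amyotrophic lateral sclerosis, and of their wild-type littermates. In the sorting experiment, CD45int/CD11b+ lumbar spinal cord microglia came from non-transgenic WT mice (n = 4) and from SOD1G93A mice with a LAG-3-low (n = 5) or LAG-3-high (n = 5) gate on the inhibitory receptor LAG-3. The study's methods place the SOD1G93A sorts at P140. In the stage experiment, microglia came at P120, the early symptomatic stage, and at P140, the late symptomatic stage, from SOD1G93A mice that were either LAG-3+/+ or LAG-3-/- (n = 3 for each of the 4 groups). In the spinal cord experiment, lumbar cord came from SOD1G93A mice of the same genotypes at P140 (n = 3 each). The SOD1 line was B6.Cg-Tg(SOD1*G93A)1Gur/J, in which the human promoter drives the transgene in many cell types, and the deletion line was B6.129S6(Cg)-Lag3tm1Doi/J. All mice of the last 2 experiments carried the SOD1 transgene, and the Lag3 deletion was present in every cell of the LAG-3-/- mice, not only in microglia. The labels do not tie libraries to single animals, so the p-values measure the spread between these libraries.

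C1q is the recognition molecule of the classical pathway, and each of its arms is built from the products of C1qa, C1qb and C1qc. Bound C1q activates the proteases C1r and C1s, which cleave C4 and C2, and the resulting convertase cleaves C3. Fragments of C3 tag debris and synapses for uptake through complement receptor 3, the integrin made of CD11b (Itgam) and CD18 (Itgb2), while the small fragments C3a and C5a act on C3ar1 and C5ar1. In the nervous system, microglia are known as the main source of C1q, and reactive astrocytes are a known source of C3 and C4.

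The C1q genes lie side by side on the minus strand of chromosome 4 (GRCm39): C1qb at 136606009 to 136613511, C1qc at 136616466 to 136620376 and C1qa at 136623223 to 136626161, each with 3 exons. The windows of 250 bases directly upstream of their start sites are shown because these genes share a locus and, in several comparisons below, moved in the same direction. They are written 5′ to 3′ on the strand of the gene, and capitals mark the core motif of the myeloid factor PU.1, GAGGAA or its reverse complement TTCCTC.
C1qa, chr4:136626162-136626411: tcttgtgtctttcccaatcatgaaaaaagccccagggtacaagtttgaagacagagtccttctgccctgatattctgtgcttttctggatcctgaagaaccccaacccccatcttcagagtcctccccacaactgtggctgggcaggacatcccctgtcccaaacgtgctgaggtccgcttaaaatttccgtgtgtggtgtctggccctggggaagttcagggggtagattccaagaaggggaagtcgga
C1qb, chr4:136613512-136613761: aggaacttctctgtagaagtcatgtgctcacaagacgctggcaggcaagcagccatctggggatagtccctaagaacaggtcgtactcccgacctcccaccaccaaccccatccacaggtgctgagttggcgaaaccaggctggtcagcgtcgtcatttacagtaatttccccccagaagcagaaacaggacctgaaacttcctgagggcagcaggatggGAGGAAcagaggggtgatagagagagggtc
C1qc, chr4:136620377-136620626: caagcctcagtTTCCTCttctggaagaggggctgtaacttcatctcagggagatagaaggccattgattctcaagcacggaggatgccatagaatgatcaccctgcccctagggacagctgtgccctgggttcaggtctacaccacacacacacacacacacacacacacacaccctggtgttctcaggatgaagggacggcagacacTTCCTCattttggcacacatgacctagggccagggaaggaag
The C1qb window held 1 match, at 30 to 25 bases upstream of the start, and the C1qc window held 2, at 239 to 234 and at 42 to 37 bases upstream. The C1qa window held none. Over 21770 protein-coding genes, 22.9% of such windows held GAGGAA on either strand, so that the matches are common letters and not called sites. The interferon-stimulated response element (3.32% of windows) and the E-box CACGTG (6.26%), each searched on both strands, were in none of the 3 windows. With neither of these motifs present, no overlap with GAGGAA was possible in the printed sequences.

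Totals per library were 9403475 to 22850586 counts for sorted microglia, 23981406 to 49512632 for staged microglia and 19430102 to 26994524 for spinal cord. Lag3, the deleted gene, measured 24.5 to 62.9 CPM (counts scaled to a common library size with TMM factors, the unit of every level below) in LAG-3+/+ microglia and at most 0.462 in LAG-3-/- microglia, where 1 to 14 counts remained. In cord it fell from 43.4 to 74.5 CPM to 5.50 to 5.72 CPM. In the sort, where it was the gate, it was 0.508 to 9.99 CPM in WT, 34.8 to 57.8 CPM in LAG-3-low and 146 to 195 CPM in LAG-3-high libraries. None of the 7 measured microglia markers was at 0 in any microglia library. Libraries also differed in the balance of long against short transcripts, taken as the median log2 deviation of the genes in the top quartile of transcript length minus that of the bottom quartile. Each deviation was taken from the gene's mean over the libraries of the same experiment, so this balance compares libraries only within an experiment. WT libraries 1 and 4 stood apart at -1.11 and -1.55, the P140 LAG-3+/+ libraries lay at -0.43 to -0.79, P140 LAG-3-/- library 1 at -0.36, and the cord LAG-3-/- libraries at -0.23 to -0.64. All other libraries lay between -0.15 and 0.47, with the LAG-3+/+ cord libraries at 0.38 to 0.47. In cord, the values of each genotype are thus relative to those of the other. This balance moves with several group contrasts below, so values corrected for the length and GC content of transcripts are given beside most of them.

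Among themselves, the 9 genes spanned a wide range. Compared per kilobase of transcript, the C1q genes were the highest in all 7 microglia groups. In LAG-3-high microglia C1qa reached 5035 ± 353 CPM per kb (SD, n = 5), C1qc 4716 ± 273 and C1qb 4194 ± 323, which placed C1qa at rank 11 to 12 among protein-coding genes. The mean ± SD ranges of neighbours in this order overlapped, and per kilobase of coding sequence their order turned, with C1qb at 13991, C1qc at 11835 and C1qa at 7447 CPM per coding kb. Below them in LAG-3-high microglia came Itgb2 at 476 ± 39.4 CPM per kb, Itgam at 211 ± 17.3 and C3ar1 at 163 ± 8.07, then C5ar1 at 64.4 ± 13.7. C3 followed at 13.9 ± 2.14 and C4b at 3.25 ± 1.83 CPM per kb, so that the components which act after C1q were far below it in these cells. In WT microglia the order was the same apart from C1qa, at 1087 ± 591 below C1qc (3255 ± 1063) and C1qb (2837 ± 918), and C5ar1 at 84.5 ± 66.9 next to C3ar1 at 39.3 ± 6.32. Neither C5ar1 and C3ar1 nor Itgb2 (195 ± 50.2) and Itgam (189 ± 25.5) differed beyond their spread in WT. In LAG-3-low microglia, C5ar1 (147 ± 27.8) also stood above C3ar1 (79.7 ± 11.7), and C3 (66.8 ± 23.9) lay next to C3ar1 within its spread.

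Spinal cord had another order. Per kilobase, C1qa led in LAG-3+/+ cord with 295 ± 62.8 CPM per kb (n = 3), followed by C4b with 144 ± 18.1, C1qc with 124 ± 24, C1qb with 117 ± 22.7 and C3 with 107 ± 11.4. The last 4 did not differ beyond their spread from their neighbours in this order. Itgam (29.5 ± 4.63) and Itgb2 (26.9 ± 3.09) were next and also inside each other's spread, C3ar1 was at 7.11 ± 1.35 and C5ar1 at 1.88 ± 0.325 CPM per kb. Per kilobase of coding sequence, C4b (150.3 CPM per coding kb) and C3 (111) instead stood below C1qa (436), C1qb (390.4) and C1qc (312). C4b has a near-identical neighbour gene, C4a, on chromosome 17 (GRCm39, 35028069 to 35042440), and reads of C4b at 34947354 to 34962912 could be split between them. C4a was listed at no more than 0.677 CPM in any microglia library and at 3.01 to 8.68 CPM in cord.

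The first comparison asked how complement genes differ by LAG-3 surface level among SOD1G93A microglia. C1qa, C1qb, C1qc and C3ar1 were higher in LAG-3-high cells, by 2.05 to 2.38 times, and C3 was lower by 4.81 times. C4b, C5ar1 and both complement receptor 3 chains did not pass the test. A call required an absolute log2 fold change above 1 and an adjusted p below 0.1 in edgeR's quasi-likelihood test. By this rule 4 members were higher and 1 lower, while 0.818% of all 16508 genes tested were called higher and 2.67% lower. The median log2 fold change was 0.50 over the 9 members and -0.02 over all genes tested.

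C1qa was 5905, 5269, 5703, 4925 and 5564 CPM in the 5 LAG-3-high libraries and 2353, 2018, 2337, 2153 and 2660.3 CPM in the 5 LAG-3-low libraries. Every LAG-3-high library lay above every LAG-3-low library, with a log2 fold change of 1.25 (SE 0.27, edgeR adjusted p = 0.0200). C1qb was 11083, 10379.6, 11158, 9284 and 11192 CPM in LAG-3-high and 4561, 4101, 4532, 4491 and 5429 CPM in LAG-3-low libraries, again with no overlap (1.20, SE 0.18, edgeR adjusted p = 0.00247). C1qc followed the same pattern, with 9045, 8897, 9076, 7852 and 8801 against 4051, 3673, 3821, 3948 and 4985 CPM (1.09, SE 0.18, edgeR adjusted p = 0.00363). With the length and GC correction C1qa was 1.29 (edgeR adjusted p = 0.00537), while C1qb at 1.09 (edgeR adjusted p = 0.118) and C1qc at 0.97 (edgeR adjusted p = 0.0954) lost the call. With library totals in place of TMM factors, which shifted the median of all genes by -0.38, C1qa, C1qb, C1qc and C3ar1 were 0.87, 0.82, 0.71 and 0.65 and none of them was called. Together the C1q transcripts took a mean of 2.13% of all counts in LAG-3-high and 1.23% in LAG-3-low libraries.

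C3ar1, the receptor for C3a, was 842, 765, 794, 827 and 868 CPM in LAG-3-high and 461, 374, 371, 330.5 and 461 CPM in LAG-3-low libraries. The groups did not overlap, and the log2 fold change was 1.04 (SE 0.15, edgeR adjusted p = 0.00159), close to the minimum of 1. C3 itself ran the other way, at 80.2, 73.1, 67.6, 54.9 and 82.4 CPM in LAG-3-high against 289, 492, 413, 359 and 169 CPM in LAG-3-low libraries. Its lowest LAG-3-low library was still above all LAG-3-high libraries, and it was lower by 2.27 on the log2 scale in LAG-3-high cells (SE 0.59, edgeR adjusted p = 0.0548). That call was the least stable: without 1 library in turn the adjusted p lay between 0.0536 and 0.139, and 8 of the 10 such fits lost it.

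C5ar1, the receptor for C5a, was 224, 136, 157, 159 and 142 CPM in LAG-3-high and 311, 383, 490.3, 356 and 328 CPM in LAG-3-low libraries. The groups did not overlap, and it was not called (log2 fold change -1.19, SE 0.39, edgeR adjusted p = 0.156), but it was called with only these 2 groups in the fit and with the length and GC correction (-1.22, edgeR adjusted p = 0.0193). Itgam, whose product CD11b was itself a sort marker of every microglia library, was 867, 757, 789.9, 699.8 and 831 against 669, 873, 1077, 778 and 839 CPM, with overlapping groups (-0.10, SE 0.15, edgeR adjusted p = 0.929). Its partner Itgb2 was 1269 to 1573 CPM in LAG-3-high and 767 to 1227 CPM in LAG-3-low libraries; the ranges were apart, and the log2 fold change of 0.50 (SE 0.18, edgeR adjusted p = 0.201) was not called. C4b was low and scattered, at 9.24 to 30.2 and 5.45 to 42.1 CPM (edgeR adjusted p = 0.998). In all, 7 of the 9 members did not overlap between these groups, which held for 15.5% of all genes tested.

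**Figure D1:**
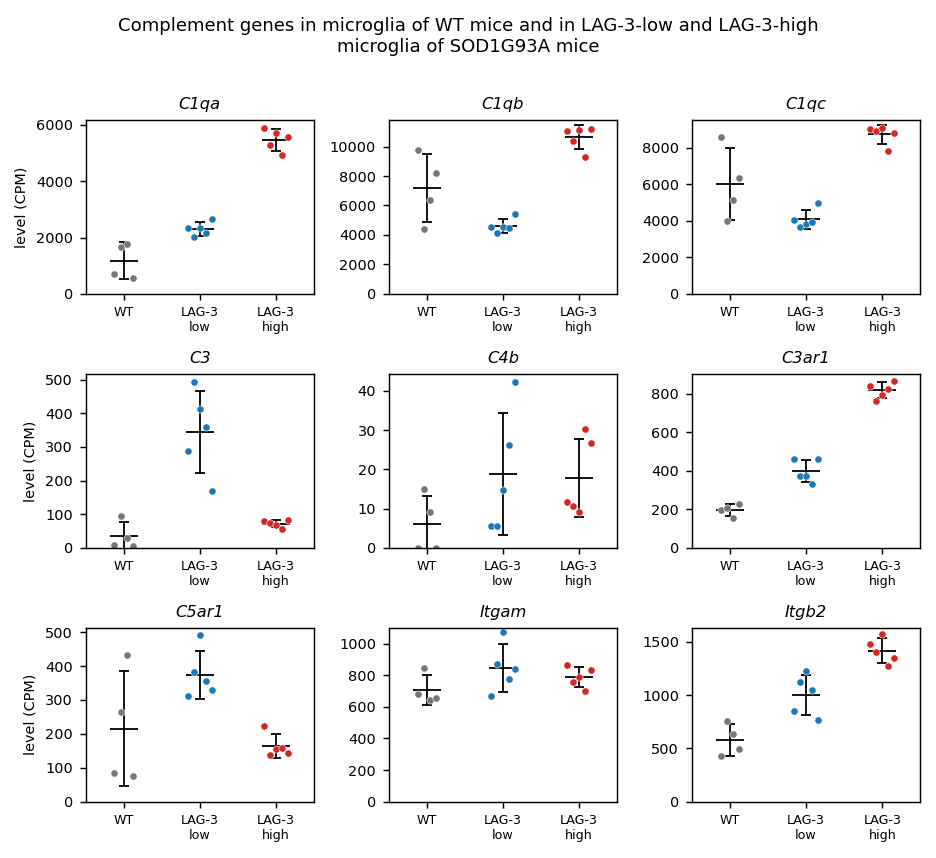
Levels of the 9 complement genes in sorted microglia (CPM after TMM scaling, linear axis from 0), with points for WT (n = 4) and for both SOD1G93A sorts (LAG-3-low and LAG-3-high, n = 5 each) and bars for the mean ± SD. LAG-3-high libraries lie above LAG-3-low libraries for C1qa, C1qb, C1qc, C3ar1 and Itgb2 and below them for C3 and C5ar1, while C1qb ranges from 4375 to 9759 CPM among WT libraries.

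The LAG-3-low libraries carried transcripts of neutrophils, which are CD11b+ cells with high CD45, a level that the CD45int gate is meant to leave out. The summed level of the 12 neutrophil markers was 28379, 52324, 66378, 49705 and 22845 CPM in the 5 LAG-3-low libraries and 3.55 to 9.67 CPM in LAG-3-high libraries, where 2 to 9 of the 12 genes were at 0. In WT libraries 1 to 4 the sum was 5972.5, 36479, 9240 and 70511 CPM. LAG-3-high cells were lower in all 11 neutrophil markers tested against the LAG-3-low sort, as they were in 3 of the 9 border macrophage and monocyte markers tested, whose sum was 84.2 to 154 against 262 to 662 CPM. In the library order of the neutrophil sums, C3 was 289, 492, 413, 359 and 169 CPM in the LAG-3-low libraries. In WT libraries 1 to 4 it was 9.43, 94.0, 29.6 and 5.39 CPM, where libraries 1 and 4 are those with the lowest long-transcript balance. The microglia marker sum was 15444 to 22745 CPM in LAG-3-low and 22858 to 25022 CPM in LAG-3-high libraries. The part of these other cells in the complement differences was not tested.

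Both SOD1G93A sorts were then set against WT microglia, and since these comparisons share the WT libraries, their values are given side by side. In LAG-3-high microglia, C1qa, C3ar1 and Itgb2 were called higher than in WT, by 2.21 (SE 0.30, edgeR adjusted p = 2.29e-04), 2.06 (SE 0.17, edgeR adjusted p = 2.25e-06) and 1.29 (SE 0.19, edgeR adjusted p = 4.51e-04) on the log2 scale. In LAG-3-low microglia, C3 and C3ar1 were called higher than in WT, by 3.32 (SE 0.68, edgeR adjusted p = 0.00563) and 1.02 (SE 0.16, edgeR adjusted p = 0.00103). The background was wide: LAG-3-high against WT had 12.1% of genes called higher and 14.9% lower, and LAG-3-low against WT had 10.9% and 11%. With the length and GC correction, which moved the median of all genes by -0.47 and -0.50, the higher calls went from 44.8% to 27% of all calls in LAG-3-high and from 49.6% to 29.2% in LAG-3-low against WT. Member medians were 1.05 and 0.80, beside -0.08 and 0.04 over all genes tested.

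The WT libraries were uneven. C1qa was 711, 1679.7, 1786 and 547 CPM in WT libraries 1 to 4, while C1qb was 9759, 4375, 6391 and 8206 CPM and C1qc 8610.4, 4008, 5150.5 and 6342 CPM. WT libraries 1 and 4 were thus lowest in C1qa and highest in C1qb and C1qc, and they are the same libraries whose long transcripts stood lowest. C1qb passed the adjusted p without the minimum fold change in both contrasts, at 0.56 (SE 0.19, edgeR adjusted p = 0.0497) in LAG-3-high and at -0.64 (SE 0.19, edgeR adjusted p = 0.0350) in LAG-3-low against WT. Without WT libraries 1 and 4 these values became 1.03 (edgeR adjusted p = 1.49e-04) and -0.13 (edgeR adjusted p = 0.522), and with the length and GC correction they became -0.71 (edgeR adjusted p = 0.154) and -1.80 (edgeR adjusted p = 0.00381). The direction of C1qb and C1qc in LAG-3-high against WT therefore turned with the correction. C1qc was 0.54 (SE 0.19, edgeR adjusted p = 0.0560) in LAG-3-high and -0.56 (SE 0.19, edgeR adjusted p = 0.0528) in LAG-3-low against WT, and with the correction -0.50 (edgeR adjusted p = 0.241) and -1.47 (edgeR adjusted p = 0.00464). C1qa in LAG-3-low against WT was 0.96 (SE 0.29, edgeR adjusted p = 0.0362), just under the minimum fold change. C1qa kept its direction in LAG-3-high against WT, at 1.70 without the 2 libraries (edgeR adjusted p = 1.05e-06) and 1.81 with the correction (edgeR adjusted p = 2.17e-04).

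C3ar1 was 198, 207, 154 and 229 CPM in the 4 WT libraries, below every SOD1G93A library of either sort. Itgb2 was 428, 761, 636 and 493 CPM in WT and at least 1269 CPM in LAG-3-high libraries; in LAG-3-low against WT its log2 fold change of 0.79 passed the adjusted p (SE 0.19, edgeR adjusted p = 0.0132) without reaching the minimum of 1. With the length and GC correction C3ar1 stayed higher in LAG-3-high cells (1.35, edgeR adjusted p = 0.00357), but in LAG-3-low cells it was 0.32 (edgeR adjusted p = 0.412), and Itgb2 was 0.19 (edgeR adjusted p = 0.560) and -0.21 (edgeR adjusted p = 0.527). C3 was 9.43, 94.0, 29.6 and 5.39 CPM in WT, all below the lowest LAG-3-low library, and its rise in LAG-3-low cells was 2.80 with the correction (edgeR adjusted p = 0.00135) and 2.53 without WT libraries 1 and 4 (edgeR adjusted p = 0.00554). In LAG-3-high against WT, C3 was 1.05 (SE 0.62, edgeR adjusted p = 0.241). C5ar1 was 84.7, 266, 434 and 75.6 CPM in WT and did not pass either test at the main setting. In LAG-3-low against WT, it was 0.80 (SE 0.42, edgeR adjusted p = 0.210). In LAG-3-high against WT, its log2 fold change was -0.39 (SE 0.41, edgeR adjusted p = 0.530), and without WT libraries 1 and 4 it was called lower at -1.04 (edgeR adjusted p = 0.00417). Itgam was 679, 849, 646 and 655 CPM in WT, beside 669 to 1077 CPM over both SOD1G93A sorts, with 0.16 (edgeR adjusted p = 0.509) in LAG-3-high and 0.26 (edgeR adjusted p = 0.277) in LAG-3-low against WT. Corrected for length and GC content, Itgam passed as lower, at -0.90 (edgeR adjusted p = 0.0169) and -0.72 (edgeR adjusted p = 0.0464), though under the minimum fold change. C4b was 0, 14.9, 9.03 and 0 CPM in WT, with 1.56 (SE 1.32, edgeR adjusted p = 0.426) and 1.65 (SE 1.32, edgeR adjusted p = 0.420).

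The stage comparison asked how these genes differ between P140 and P120 in SOD1G93A/LAG-3+/+ microglia. C1qa, C1qb, C1qc and C5ar1 were higher at P140 and Itgam was lower, with called genes here at an adjusted p under 0.1 and no minimum fold change. Of all 18669 genes tested, 11.9% were called higher and 15.5% lower. The length and GC correction turned this balance, with 3024 genes called higher and 1355 lower, and moved the median of all genes by 0.45. The median log2 fold change was 0.49 over the members and -0.22 over all genes.

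C1qb was 7208, 6353 and 5644 CPM at P120 and 13412, 18346 and 16982 CPM at P140. The lowest P140 library lay well above the highest P120 library (log2 fold change 1.34, SE 0.27, edgeR adjusted p = 0.00948). C1qc rose from 5605, 4943 and 4579 to 11473, 16353 and 13215 CPM (1.44, SE 0.28, edgeR adjusted p = 0.00861). C1qa rose less, from 3101, 2718 and 2313 to 3884, 4523 and 4536 CPM (0.67, SE 0.22, edgeR adjusted p = 0.0534), and with the length and GC correction it was 1.01 (edgeR adjusted p = 0.0163). With 1 library left out in turn, C1qa kept its call in only 2 of 6 fits (edgeR adjusted p from 0.0650 to 0.180). C1qb, C1qc, C5ar1 and Itgam kept theirs in all 6. Scaled by library totals without TMM factors, C1qa was 3275, 2965 and 2681 at P120. At P140 it was then 3320, 3316 and 3471, so the groups were apart only narrowly. With the correction C1qb was 1.39 and C1qc 1.35 (edgeR adjusted p = 0.00888 each). Summed, the 3 C1q genes went from between 12536 and 15914 CPM at P120 to between 28770 and 39221 CPM at P140.

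C5ar1 rose from 224, 245 and 258 to 428, 639.8 and 522 CPM (1.13, SE 0.20, edgeR adjusted p = 0.00636), and was 1.24 with the correction (edgeR adjusted p = 0.00824). Itgam fell from 740.5, 776 and 653 CPM at P120 to 203, 247 and 255 CPM at P140, with every P140 library below every P120 library (-1.62, SE 0.25, edgeR adjusted p = 0.00547). With the length and GC correction, its fall was -0.88 (edgeR adjusted p = 0.0249). Itgb2, the other chain of the same receptor, did not fall: it was 976, 787 and 688 CPM at P120 and 1162, 898 and 1385 CPM at P140, with overlapping groups (0.49, SE 0.24, edgeR adjusted p = 0.174), and with the correction it was called higher (0.75, edgeR adjusted p = 0.0422). The log2 ratio of Itgam to Itgb2 was -0.49 to 0.21 over the 6 P120 libraries and -2.52 to -1.86 in the P140 LAG-3+/+ libraries. Against Csf1r, which was itself called lower at P140, the log2 ratio of Itgam was -3.08 to -2.93 at P120 and -3.47, -1.96 and -2.72 at P140 in LAG-3+/+ libraries, where 1 library lay below and the other 2 above the P120 range. In P140 LAG-3-/- libraries it was -3.26 to -2.66.

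C3ar1 was 567, 538 and 489 CPM at P120 and 522, 888 and 735 CPM at P140 and did not pass the test (edgeR adjusted p = 0.176), while it was called with the length and GC correction (1.44, edgeR adjusted p = 0.00940). C3 was 60.2, 29.4 and 31.6 CPM at P120 and 10.7, 16.6 and 7.34 CPM at P140. These ranges were apart, but at such levels the log2 fold change of -1.81 had an SE of 0.98 (edgeR adjusted p = 0.222), and with the correction it was -0.72 (edgeR adjusted p = 0.653). C4b was 16.9, 13.4 and 11.1 CPM at P120 and 10.8, 0.0569 and 10.6 CPM at P140 (edgeR adjusted p = 0.623). In this comparison 7 of the 9 members did not overlap between the groups, beside 42.2% of all genes tested.

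Neutrophil marker sums were 1743 to 2576 CPM in the P120 LAG-3+/+ libraries and 3482, 667 and 3.92 CPM in the P140 LAG-3+/+ libraries, and none of the 10 neutrophil markers tested was called. The microglia marker sum was 25118 to 28275 CPM at P120 and 33564 to 40226 CPM at P140. Of the 7 microglia markers tested, 2 were called higher, among them Aif1 (1.58), and 2 lower, Csf1r (-1.84) and Sall1 (-1.71), with a list median of 0.44. The P140 libraries were those with the lower long-transcript balance (-0.43 to -0.79, against 0.22 to 0.47 at P120), and its part in the differences was tested only through the correction.

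In SOD1G93A/LAG-3-/- microglia the same stage contrast gave no call, for any of the 9 members or any of the 18669 genes (0%) in edgeR's test, with 1658 genes and 3 members at an unadjusted p under 0.05. DESeq2 called 449 genes, among them 1 member, C1qb, with a log2 fold change of 0.90 (adjusted p = 0.0969). C1qb was 5036, 5888 and 4269 CPM at P120 and 13719, 8412 and 6019 CPM at P140 in these mice, so the groups were apart while the P140 libraries spread widely (0.89, SE 0.27, edgeR adjusted p = 0.475). C1qc was 4405, 5024 and 3652 CPM at P120 and 11038, 7099 and 4552 CPM at P140. C1qa was 2005, 2716 and 1814 against 4029, 3437 and 2432 CPM. In all 3 genes P140 library 1 was the highest, and it is the library of its group with the lowest long-transcript balance, -0.36 against 0.33 and 0.34. Itgam was 753, 587 and 736 CPM at P120 and 389.8, 771 and 786 CPM at P140, a difference in log2 level of -0.09 (SE 0.24, edgeR adjusted p = 0.972). The rest gave 0.60 for C1qa, 0.79 for C1qc, 0.82 for C3, 1.15 for C4b, 0.31 for C3ar1, 0.42 for C5ar1 and 0.49 for Itgb2, with edgeR adjusted p from 0.504 to 0.900.

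**Figure D2:**
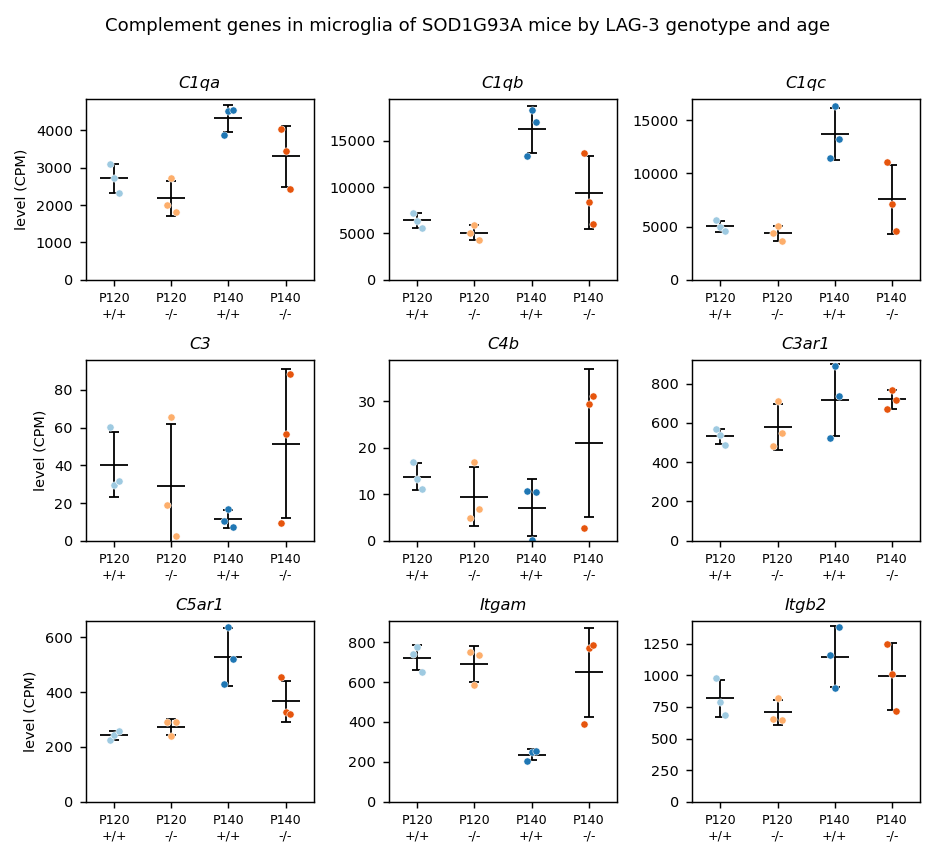
Levels of the 9 complement genes in staged SOD1G93A microglia (CPM after TMM scaling, linear axis from 0), with points for the 3 libraries of each genotype and stage and bars for the mean ± SD. C1qb reaches 13412 to 18346 CPM in P140 LAG-3+/+ libraries, and Itgam drops to 203 to 255 CPM in the same libraries, while the P140 LAG-3-/- libraries spread between 389.8 and 786 CPM for Itgam.

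The genotype comparison asked what Lag3 deletion changed at each stage. At P120 no member was called, with log2 fold changes from -0.54 to 0.17 and all adjusted p at 1 in edgeR's test. Only 2 genes of the whole table were called (0.0107%), no member had an unadjusted p under 0.05 although 551 genes did, and DESeq2 called 134 genes. C1qb, for example, was 5644 to 7208 CPM in LAG-3+/+ and 4269 to 5888 CPM in LAG-3-/- microglia, and Itgam was 653 to 776 and 587 to 753 CPM. The log2 fold changes were -0.32 for C1qa, -0.34 for C1qb, -0.21 for C1qc, -0.47 for C3, -0.54 for C4b, 0.13 for C3ar1, 0.17 for C5ar1, -0.06 for Itgam and -0.21 for Itgb2. The neutrophil marker sum was 1743 to 2576 CPM in LAG-3+/+ and 2.81 to 6.58 CPM in LAG-3-/- libraries at P120, with 6 to 7 of the 12 genes at 0 in the latter, and its part in these values was not tested.

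At P140, Itgam was the only member called in edgeR's main fit: it was 389.8, 771 and 786 CPM in LAG-3-/- and 203, 247 and 255 CPM in LAG-3+/+ microglia. Every LAG-3-/- library lay above every LAG-3+/+ library (log2 fold change 1.46, SE 0.25, edgeR adjusted p = 0.0217), beside 7.22% of all genes called higher and 3% called lower. The length and GC correction turned that balance, to 476 genes called higher and 779 lower, and the median of all genes moved by -0.31. With the correction Itgam was 0.83 (edgeR adjusted p = 0.0875), and with no other groups in the fit it was 1.47 (edgeR adjusted p = 0.207). The member median was -0.21, beside 0.14 over all genes tested. Of the marker lists, 2 of 7 microglia markers and 1 of 8 border macrophage and monocyte markers tested were also called higher. The log2 ratio of Itgam to Csf1r overlapped between genotypes, at -3.26 to -2.66 in LAG-3-/- and -3.47 to -1.96 in LAG-3+/+ libraries. The part of cell makeup in the Itgam value was not tested.

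C1q ran lower in LAG-3-/- libraries at P140 without passing edgeR's test. DESeq2 called further members besides Itgam in this contrast, 5 in all, whose names and values are not reported here. It called 4281 of all 18669 genes tested, where edgeR's main fit called 1908. C1qb was 13719, 8412 and 6019 CPM in LAG-3-/- and 13412, 18346 and 16982 CPM in LAG-3+/+ microglia, which overlapped (-0.79, SE 0.27, edgeR adjusted p = 0.113). C1qc, at 11038, 7099 and 4552 against 11473, 16353 and 13215 CPM, did not overlap (-0.86, SE 0.28, edgeR adjusted p = 0.102), and C1qa gave -0.39 (SE 0.22, edgeR adjusted p = 0.302). With the correction C1qb was called lower (-0.89, edgeR adjusted p = 0.0991), while C1qc (-0.82, edgeR adjusted p = 0.111) and C1qa (-0.56, edgeR adjusted p = 0.198) were not called. Without LAG-3-/- library 1, 5 members were called: C1qb at -1.17 (edgeR adjusted p = 0.00646), C1qc at -1.23 (edgeR adjusted p = 0.00766), C5ar1 at -0.71 (edgeR adjusted p = 0.0289), C3 at 2.65 (edgeR adjusted p = 0.0951) and Itgam at 1.73 (edgeR adjusted p = 2.88e-04). Without LAG-3-/- library 2, none was called, and without LAG-3+/+ library 1, 4 were. Over the whole table, 4140 of 20508 genes were called without LAG-3-/- library 1, and 95 of 20220 without LAG-3-/- library 2. Without LAG-3+/+ library 1, 2609 of 20490 were called. Itgam was called in 5 of the 6 fits with 1 library left out. Its log2 fold changes were 1.27 to 1.73, with edgeR adjusted p of at most 0.111, the value without LAG-3-/- library 2.

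Of the other members, C5ar1 was 454, 326 and 319 CPM in LAG-3-/- and 428, 639.8 and 522 CPM in LAG-3+/+ microglia at P140 (-0.53, SE 0.20, edgeR adjusted p = 0.135). C3ar1 was level, at 672, 769 and 718 against 522, 888 and 735 CPM (0.01, SE 0.21, edgeR adjusted p = 0.989). C3 was 9.55, 56.6 and 88.4 against 10.7, 16.6 and 7.34 CPM (2.16, SE 0.99, edgeR adjusted p = 0.210), C4b was 2.64, 29.3 and 31.2 against 10.8, 0.0569 and 10.6 CPM (1.56, SE 1.18, edgeR adjusted p = 0.456), and the neutrophil marker sums of these LAG-3-/- libraries were 4.02, 847 and 4618 CPM. Itgb2 was 1251, 1007 and 717 against 1162, 898 and 1385 CPM (-0.21, SE 0.24, edgeR adjusted p = 0.640). With the correction C5ar1 was -0.65, C3ar1 -0.75, C3 1.16, C4b 0.62 and Itgb2 -0.45, none of them called. In this contrast 2 members, C1qc and Itgam, did not overlap, beside 21.1% of all genes tested.

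The interaction, which tests whether the genotype effect differed between P140 and P120, called no member and 32 genes in all (0.171%) in edgeR. Itgam had the smallest adjusted p among the members (log2 difference 1.53, SE 0.35, edgeR adjusted p = 0.176). The others were C1qa at -0.07, C1qb at -0.45, C1qc at -0.65, C3 at 2.63, C4b at 2.09, C3ar1 at -0.12 and C5ar1 at -0.71, with edgeR adjusted p of 0.309 or more, and Itgb2 had the largest adjusted p. Itgam was called by DESeq2 (1.41, adjusted p = 0.0089), without the filter on low counts (1.56, edgeR adjusted p = 0.0562) and without P140 LAG-3-/- library 1 (1.79, edgeR adjusted p = 0.00362). Its corrected value was 0.84 and not called (edgeR adjusted p = 0.359). In the fit without P140 LAG-3-/- library 1, C1qc (-1.02, edgeR adjusted p = 0.0899) and C5ar1 (-0.88, edgeR adjusted p = 0.0721) were called as well. That fit called 1713 of 20508 genes over the whole table, DESeq2 called 1301 of 18669 and the fit without the filter 179 of 38695.

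In whole lumbar spinal cord at P140, the comparison asked how Lag3 deletion altered the tissue. C3, C4b, C3ar1, Itgam and Itgb2 were lower in LAG-3-/- cord, by less than the minimum fold change, while the C1q genes and C5ar1 did not pass the test. With the minimum fold change no member was called, beside 4.37% of all 17702 genes called higher and 3.15% called lower. By the adjusted p alone 5 members were lower, as were 23.9% of all genes. The median log2 fold change was -0.45 over the members and 0.00 over all genes.

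Itgam was 125, 91.4 and 115 CPM in LAG-3+/+ and 63.9, 51.5 and 63.9 CPM in LAG-3-/- cord. The groups did not overlap, and it fell by 0.89 on the log2 scale (SE 0.14, edgeR adjusted p = 7.73e-04), or by 0.81 with the length and GC correction (edgeR adjusted p = 0.00347). Itgb2 fell from 87.3, 69.5 and 82.4 CPM to 53.4, 38.0 and 52.6 CPM (-0.73, SE 0.14, edgeR adjusted p = 0.00253), and its value with the correction was -0.83 (edgeR adjusted p = 0.00341). C3ar1 fell from 40.5, 27.9 and 38.5 CPM to 25.9, 15.1 and 19.2 CPM (-0.84, SE 0.20, edgeR adjusted p = 0.0108), and was -0.52 with the correction (edgeR adjusted p = 0.171). C3ar1 lies on the chromosome of Lag3 (chromosome 6, GRCm39, 122823393 to 122833122), 2048198 bases from it, so an effect of the deletion and of the linked segment of the donor strain cannot be told apart for this gene. In a bulk sample, fewer cells of a type and less RNA per cell cannot be told apart.

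C3 was 579.9, 484 and 592 CPM in LAG-3+/+ and 418, 214 and 364 CPM in LAG-3-/- cord, without overlap (-0.74, SE 0.22, edgeR adjusted p = 0.0251). C4b was 888, 693 and 770.0 CPM against 655, 406 and 659 CPM, also without overlap (-0.45, SE 0.19, edgeR adjusted p = 0.0806). With the length and GC correction C3 was -0.54 (edgeR adjusted p = 0.148) and C4b -0.27 (edgeR adjusted p = 0.349), so neither passed. The summed level of the 6 astrocyte markers was 12945 to 14787 CPM in LAG-3+/+ and 7582 to 12100 CPM in LAG-3-/- cord, and its part in these differences was not tested.

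The C1q genes behaved otherwise. C1qa was 375, 244 and 342 CPM in LAG-3+/+ and 397, 239 and 295 CPM in LAG-3-/- cord, with a log2 fold change of -0.05 and a 95% interval of -0.62 to 0.53 (edgeR adjusted p = 0.883). C1qb was 339, 231 and 319 against 351, 209 and 262 CPM (-0.11, interval -0.67 to 0.45, edgeR adjusted p = 0.691), and C1qc 266, 181 and 245 against 267, 166 and 227 CPM (-0.07, interval -0.59 to 0.46, edgeR adjusted p = 0.811). Differences within these bounds are not excluded with 3 libraries a group. The bounds are wider than the limit of the test, since C4b passed the adjusted p with an interval of -0.97 to 0.07. With the correction C1qa (-0.72, edgeR adjusted p = 0.0279) and C1qc (-0.49, edgeR adjusted p = 0.0984) passed the adjusted p as lower. C5ar1 was 3.83 to 5.38 and 3.10 to 4.75 CPM (-0.36, SE 0.23, edgeR adjusted p = 0.227). In all, 5 of the 9 members did not overlap between genotypes (C3, C4b, C3ar1, Itgam and Itgb2), beside 51.6% of all genes tested.

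**Figure D3:**
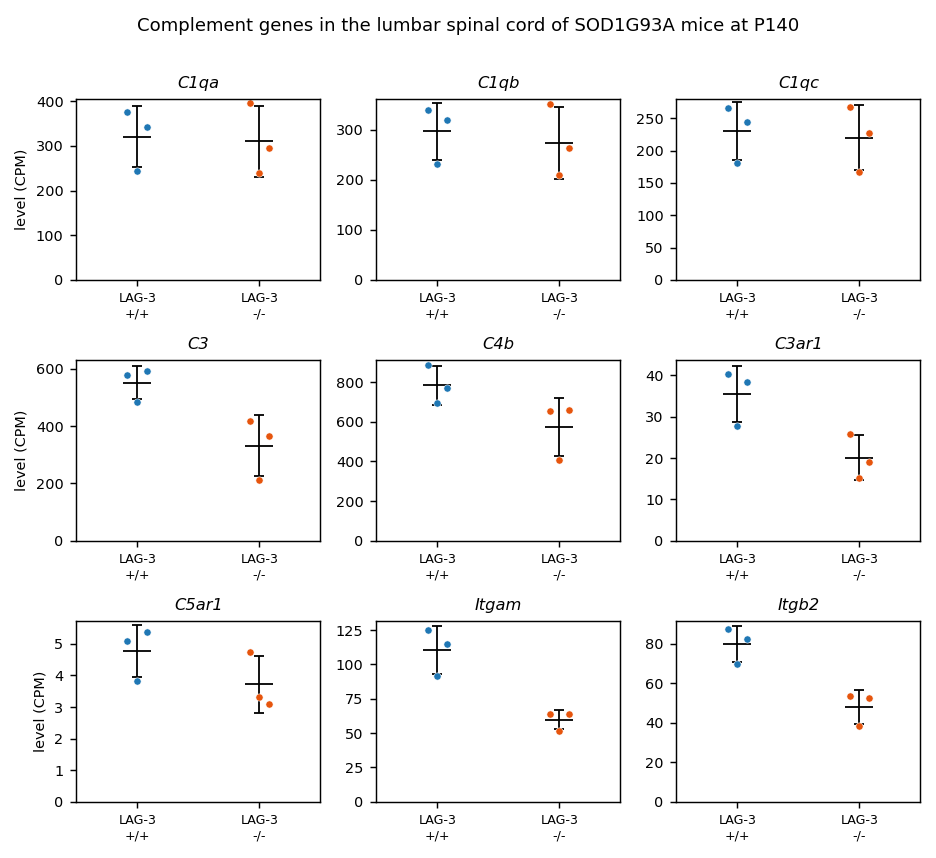
Levels of the 9 complement genes in P140 lumbar spinal cord (CPM after TMM scaling, linear axis from 0), with points for the 3 LAG-3+/+ and 3 LAG-3-/- libraries and bars for the mean ± SD. Itgam lies at 91.4 to 125 CPM in LAG-3+/+ and 51.5 to 63.9 CPM in LAG-3-/- cord, while the C1qa, C1qb and C1qc points of the genotypes overlap.

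The microglia marker sum was 1103 to 1386 CPM in LAG-3+/+ and 790 to 1078 CPM in LAG-3-/- cord, and 4 of its 7 tested genes passed the adjusted p, as 47.1% of all genes did. The summed markers of oligodendrocytes were 17337 ± 861 CPM in LAG-3+/+ and 28177 ± 4756 CPM in LAG-3-/- cord, those of neurons 3409 ± 572 and 4134 ± 294 CPM, and those of endothelial cells 144 ± 4.97 and 114 ± 8.10 CPM (SD, n = 3), and the part of this makeup in the complement values was not tested. LAG-3-/- library 2, the lowest of its group in C1q, C3, C4b, C3ar1, Itgam and Itgb2, stood apart in the summed markers of erythroid cells (163 CPM, against 10.8 to 32.3 CPM in the other 5 libraries) and of neutrophils (21.3 CPM, against 3.78 to 7.84 CPM). Without it Itgam was -0.79 (edgeR adjusted p = 0.00432), Itgb2 -0.59 (edgeR adjusted p = 0.00863), C3ar1 -0.66 (edgeR adjusted p = 0.0243) and C3 -0.50 (edgeR adjusted p = 0.0357), while C4b (-0.25, edgeR adjusted p = 0.259) no longer passed. Set against Csf1r, the microglial growth factor receptor, the log2 ratio of Itgam was -1.54 to -1.45 in LAG-3+/+ and -2.14 to -1.98 in LAG-3-/- cord, without overlap. The same ratio of C1qb was -0.20 to -0.000705 and 0.02 to 0.31. By these ratios, which carry no length and GC correction, Itgam was lower and C1qb was not lower in the deletion. With the correction, C1qa and C1qc passed the adjusted p as lower in cord, as given above.

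**Figure D4:**
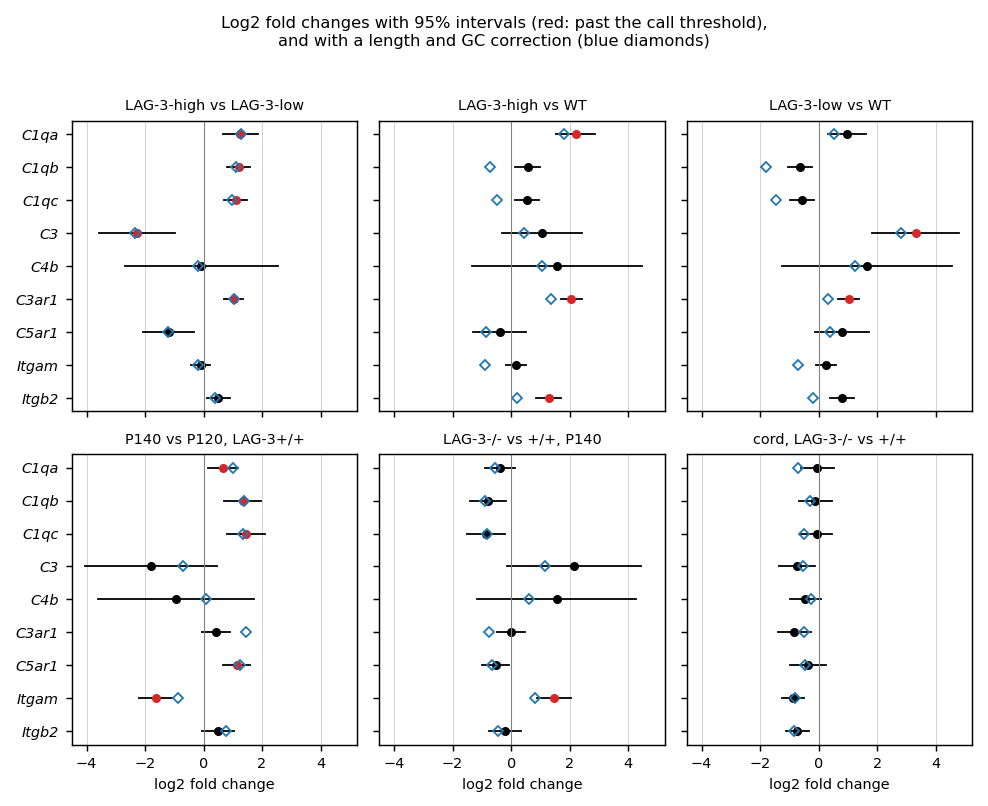
Log2 fold changes of the 9 complement genes in 6 comparisons, with points from edgeR (red where called), black lines for the 95% interval and blue diamonds for the value with the transcript length and GC correction. In LAG-3-high against LAG-3-low microglia the diamonds lie close to the points (C1qa 1.29 against 1.25), whereas in LAG-3-high against WT the C1qb diamond lies at -0.71 and the point at 0.56.

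The C1q genes varied together to different degrees. C1qb and C1qc, which have the longer transcripts (2532 and 1852 bases), kept a log2 ratio of C1qc to C1qb between -0.40 and -0.12 in all 32 libraries. C1qa, with 1087 bases the shortest transcript of the 9 and, at 59.2%, the highest in GC content, stood at a log2 ratio to C1qb of -1.06 to -0.91 in the libraries of both SOD1G93A sorts and of 0.08 to 0.20 in cord. The ratio was -3.78, -1.38, -1.84 and -3.91 in WT libraries 1 to 4, -1.33 to -1.12 at P120, -2.02 to -1.79 in P140 LAG-3+/+ and -1.77, -1.29 and -1.31 in P140 LAG-3-/- libraries. Among the sorted libraries, WT libraries 1 and 4 were thus lowest both in this ratio and in the long-transcript balance. Over the 14 sorted libraries, Pearson's r of log2 CPM was 0.99 for C1qb with C1qc and 0.36 for C1qa with C1qb, and over the 12 staged libraries it was 0.99 and 0.96. These are descriptions over libraries that share groups and preparation.

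**Figure D5:**
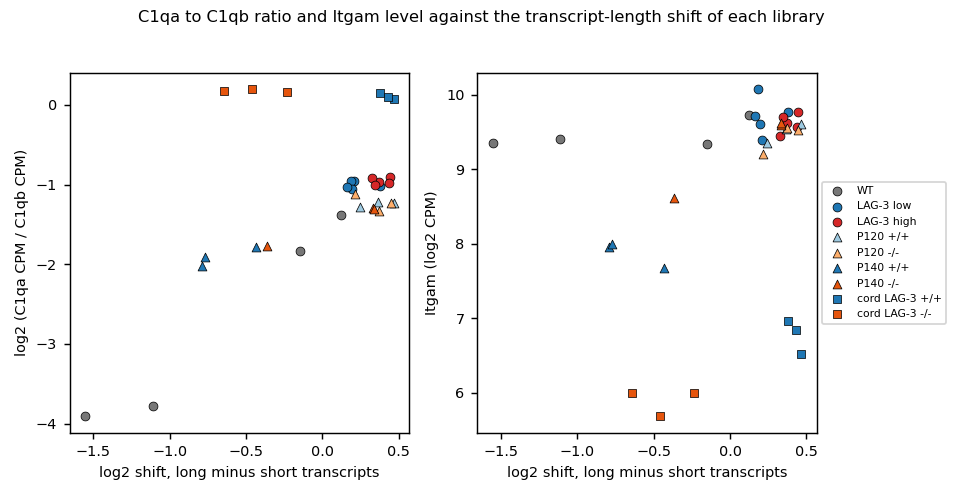
Long-minus-short transcript balance of each of the 32 libraries (log2, horizontal axis) against the log2 ratio of C1qa to C1qb (left) and against Itgam in log2 CPM (right), coloured by experiment and group. The balance is centred within each experiment, so horizontal positions do not compare between experiments. WT libraries 1 and 4, at -1.11 and -1.55, have the lowest C1qa to C1qb ratios (-3.78 and -3.91), and the P140 LAG-3+/+ libraries, at -0.43 to -0.79, have the lowest Itgam of the microglia libraries.

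Itgam and Itgb2 had r = 0.98 over the 6 cord libraries, 0.54 over the sorted and -0.69 over the staged libraries, and Itgam with C1qb had -0.88 over the staged libraries. The genes most like each member, by r of log2 CPM among genes with a mean of at least 10 CPM, differed between the experiments. For the mean of the C1q genes they were Ctsh (0.97), Fuca1 (0.97) and Ppt1 (0.96), which encode lysosomal enzymes, in sorted microglia, Ly86 (0.997), Fcer1g (0.996) and Creg1 (0.995) in staged microglia, and Ppp1r18 (0.99), Slc22a15 (0.99) and P2rx4 (0.99) in cord. For Itgam they were Timm29 (0.82), Ppp1r15b (0.81) and Pik3cg (0.79) in sorted microglia, Erbin, Zmiz1 and Dmtf1 (0.98 each) in staged microglia, and Ptprc (0.999), Nckap1l (0.999) and Cdk5rap2 (0.998) in cord. For Itgb2 they were Anapc11 (0.96), Tlr2 (0.96) and Alas1 (0.95), then Pdhx (0.95), Gusb (0.94) and Copz1 (0.94), then Man2b2 (0.999), Serpina3n (0.999) and Slc37a2 (0.997).

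For C3 the most alike genes were Pygl (0.98), G6pdx (0.98) and Fbxo5 (0.97) in sorted microglia, Akap5 (0.94), Arrdc4 (0.91) and Eef1a1 (0.91) in staged microglia, and Clu, Sulf2 and Wnt7b (0.996 each) in cord. For C4b they were Polrmt, Cd2bp2 and Qpctl (0.97 each), Galc (0.97), Dbf4 (0.96) and Dr1 (0.95), and Rffl (0.99), Pofut1 (0.99) and Pbxip1 (0.99), in the same order. For C3ar1 they were Sirt2, Rps2 and Nrp1 (0.97 each), Lztfl1 (0.89), Gas5 (0.88) and Vdac1 (0.88), and Hpgd (0.998), Cd34 (0.998) and Cd68 (0.997). For C5ar1 they were Cfp (0.98), 9530053H05Rik (0.94) and Pstpip2 (0.93), Abhd6 (0.98), Nmt1 (0.97) and BC005624 (0.97), and Plekhf2 (0.99), Cebpd (0.99) and Sod3 (0.98). With 6 cord libraries many genes reach such values. Cfp encodes properdin, a complement protein of the alternative pathway.

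The rest of the complement system was read from 46 other genes in 5 lists: initiators and proteases, alternative pathway, terminal components, regulators, and other receptors with beta2 integrin partners. Most were low or absent in microglia, and 20 of the 46 were tested in sorted microglia, 21 in staged microglia and 29 in cord. In LAG-3-high against LAG-3-low microglia none of the 20 was called higher and 3 were lower, beside 2.67% of all genes called lower: 1 of 4 initiators, the ficolin Fcnb (mean 0.0123 against 421 CPM, edgeR adjusted p = 0.00456), 1 of 2 alternative pathway genes, properdin Cfp (1.15 against 56.2 CPM, edgeR adjusted p = 0.0648), and 1 of 4 other receptors, Cd93 (0.115 against 5.99 CPM, edgeR adjusted p = 0.0890). The 1 terminal component and the 9 regulators tested held no call. Beside these values stand the neutrophil marker sums above, since Fcnb and Cfp are known from neutrophils, and that part was not tested.

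Against WT, LAG-3-high microglia had 8 of the 20 genes called higher and 5 lower, and LAG-3-low microglia had 5 and 2, beside 12.1% and 14.9% of all genes in the first contrast and 10.9% and 11% in the second. Itgax, the CD11c chain that pairs with CD18 in complement receptor 4, had a mean of 2.80 CPM in WT, 122 CPM in LAG-3-low (edgeR adjusted p = 0.00303) and 698 CPM in LAG-3-high microglia (edgeR adjusted p = 2.50e-04). Itgal, the CD11a chain, had a mean of 3.40 CPM in WT, 53.3 CPM in LAG-3-low and 38.7 CPM in LAG-3-high microglia. The initiators C1ra (0.0127 CPM in WT, 2.43 CPM in LAG-3-low, 5.33 CPM in LAG-3-high), C2 (0.0414 CPM in WT and 5.57 CPM in LAG-3-high) and Masp1 (3.05 CPM in WT and 27.5 CPM in LAG-3-high) were called higher in LAG-3-high cells, and C1ra also in LAG-3-low cells. Among the regulators, Cd46 was called higher in both, Cd59a and Clu in LAG-3-high and Cd55 in LAG-3-low cells, all with means under 5 CPM. Called lower were Csmd3 (90.0 CPM in WT, 32.0 in LAG-3-low and 13.6 in LAG-3-high) and C5ar2 (36.2, 14.5 and 12.3 CPM) in both, and Fcnb, Cfp and Cd93 in LAG-3-high cells. No alternative pathway gene and no terminal component was called in LAG-3-low, and no terminal component in LAG-3-high cells.

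Between P140 and P120 in LAG-3+/+ microglia, 2 of 21 genes were called higher, both regulators, and 3 lower, 1 initiator, 1 regulator and 1 integrin partner, beside 11.9% and 15.5% of all genes. Cr1l, a regulator of C3 convertases, went from 112 to 189 CPM (edgeR adjusted p = 0.0353), and Cd59a from 0 to 1.55 CPM. Fcnb and Itgal fell from 8.77 and 8.51 CPM to 0 and 0.325 CPM. The 2 alternative pathway genes and the 1 terminal component tested were not called. In LAG-3-/- against LAG-3+/+ microglia at P140, 2 of 21 genes were called higher, 1 regulator and Itgal (8.96 against 0.325 CPM), beside 7.22% of all genes, and none was called lower. The stage contrast in LAG-3-/- microglia, the P120 genotype contrast and the interaction called none of the 21.

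In cord, 3 of the 29 other complement genes tested were called, all lower in LAG-3-/- tissue, beside 3.15% of all genes called lower: Itgax (mean 33.4 against 83.6 CPM, -1.33, edgeR adjusted p = 0.00629) and Itgal (1.41 against 3.47 CPM, -1.30, edgeR adjusted p = 0.00374), 2 of 5 other receptors and integrin partners, and Colec10 (0.316 against 0.724 CPM), 1 of 8 initiators. By the adjusted p alone 8 of 13 regulators passed, beside 47.1% of all genes. Of these, and without the length and GC correction, Csmd3 (-0.98), Csmd1 (-0.92), Csmd2 (-0.79), Clu (-0.45) and Cr1l (-0.34) were lower, while Cd59a (0.59), the inhibitor of the membrane attack complex, and Vtn (0.54) were higher. C1ra (-0.71, edgeR adjusted p = 0.0356), which lies 380918 bases from Lag3, also passed. Neither of the 2 alternative pathway genes nor the 1 terminal component tested passed. Values with the correction are not given for any of these other complement genes. The part of the lower long-transcript balance of LAG-3-/- cord in them was not tested. The CD11 chains Itgam, Itgax and Itgal and their shared partner Itgb2 were lower by the adjusted p alone in LAG-3-/- cord, beside 23.9% of all genes. The value of Itgad, another CD11 chain tested in cord at no more than 19 counts a library, is not reported here.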

How the data were processed

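Microglia sorted from lumbar spinal cord and whole lumbar spinal cord were measured by RNA-seq (14, 12 and 6 libraries in the sorting, stage and cord experiments). Reads were trimmed by the authors (Trim Galore 0.6.7), who quantified them with Salmon 1.9.0 against GRCm39 and summed them to genes with tximport under R 4.2.1, and deposited expected counts (estimated counts), which are neither whole nor normalised. The annotation release is not given in the sources used here. Microglia libraries came from a SMART-seq kit and cord libraries from a directional kit, so levels were not tested between them.

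The estimated counts were rounded. Each experiment was fitted in 1 model with edgeR 4.0.16 (R 4.3.3): filterByExpr (minimum count 10, minimum total 15), TMM, robust quasi-likelihood F-test and Benjamini-Hochberg adjustment over 16508, 18669 and 17702 genes. Calls needed an adjusted p under 0.1 and, except in the stage experiment, an absolute log2 fold change above 1. The study names DESeq2 with these thresholds and gives none for the stage model; DESeq2 1.42.0 is an alternative here. Log2 CPM used a prior count of 2. Each SE was derived from the test, as the absolute log2 fold change over the square root of F. The 95% intervals used a t quantile at the residual degrees of freedom of the fit. The test itself used moderated degrees of freedom, so interval and p-value can differ on whether 0 is passed. Levels per kilobase used the length of each gene's canonical transcript in the GRCm39 annotation, from which 71, 66 and 71 identifiers were absent. The length and GC correction was a loess (span 0.3) of each library's log2 deviation, entered as offsets. Upstream sequences came from the GRCm39 genome. The fits were tested on simulated data. Counting error is small at these depths (9403475 to 49512632 counts a library) except for C4b in microglia and other genes at a few CPM.

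Libraries were grouped by their labels, and no replicate pair agreed within sampling noise. The 9 members and all lists were chosen with earlier results of these data known. The rule for named genes was all members in every comparison and, of the lists, the genes past the threshold, at most 6 by adjusted p. A few further genes (regulators and C1ra in cord) that passed only the adjusted p were named after their values were seen. Some genes of the lists are not reported here. The fit without WT libraries 1 and 4 was added after seeing the data.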

Additional observations from a re-analysis of the deposited data

Results flagged for a closer look

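Of 27 gene and group combinations with 4 or 5 libraries, 1 had a library far from the others: C1qc in LAG-3-high microglia, where library 4 was the lowest at 7852 CPM and the other 4 libraries lay between 8801 and 9076 CPM. Its gap to the nearest library was 0.788 of the group's whole range, above the 95% critical value for 5 samples. Chance alone flags about 1 in 20 groups. Without this library C1qc was still called higher against the LAG-3-low sort, at 1.13 on the log2 scale (edgeR adjusted p = 0.00948).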

How the results depend on the processing

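Most values kept their direction and their side of the threshold: of the member values under alternatives, 1231 did so, 34 lost a call, 54 gained one and 49 turned direction. In LAG-3-high against LAG-3-low microglia 5 members were called, 2 with library totals only, and 3 to 5 with 1 library left out (3 without LAG-3-low library 4). In LAG-3-high against WT, the 3 calls became 5 without WT libraries 1 and 4 or without the fold minimum, and in LAG-3-low against WT the 2 calls became 6 without the fold minimum and 1 to 3 with 1 library left out (1 without LAG-3-low library 1 or 5). At P140, genotype gave 1 call, but 5 with DESeq2, 2 with library totals, 2 with a mean count of at least 10 or the length and GC correction, 3 with no filter or RLE factors, 0 with only the groups compared and 0 to 5 with 1 library left out. The interaction gave 0, but 1 with DESeq2 or no filter and 0 to 3 with 1 library left out. The stage contrast in LAG-3-/- microglia gave 0, and 1 with DESeq2. Cord gave 0, but 1 with library totals, 5 without the fold minimum and 0 to 1 with 1 library left out (1 without LAG-3-/- library 1 or LAG-3+/+ library 2). The causes were not tested.

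Direction turned (log2) in the interaction for C1qa (0.13), C3ar1 (0.13) and Itgb2 (0.18) with library totals, and for Itgb2 with no filter (0.024) and with sex (0.0012). Genotype at P120 turned for Itgam with library totals (0.052). Genotype at P140 turned for C3ar1 with DESeq2 (-0.0855), RLE factors (-0.0855) and the correction (-0.75), and for Itgb2 with library totals (0.0725). LAG-3-high against LAG-3-low turned for C4b with sex (0.0137), and LAG-3-high against WT for Itgam with library totals (-0.16). With the correction, LAG-3-high against WT turned for C1qb (-0.71), C1qc (-0.50) and Itgam (-0.90), LAG-3-low against WT for Itgam (-0.72) and Itgb2 (-0.21), and the LAG-3+/+ stage contrast for C4b (0.10). That contrast turned for C3ar1 with library totals (-0.079). With 1 library left out, values spanned 0 in the interaction for C1qa (-0.23 to 0.12), C3ar1 (-0.29 to 0.0745) and Itgb2 (-0.20 to 0.19), in genotype at P120 for C3 (-1.91 to 0.0682), C3ar1 (-0.0459 to 0.24) and Itgam (-0.13 to 0.0425), in genotype at P140 for C3ar1 (-0.17 to 0.20), in cord for C1qa (-0.27 to 0.11), C1qb (-0.33 to 0.0494) and C1qc (-0.23 to 0.10), in LAG-3-high against LAG-3-low for C4b (-0.37 to 0.45), in LAG-3-high against WT for C5ar1 (-0.67 to 0.22) and in the LAG-3-/- stage contrast for Itgam (-0.25 to 0.17).

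The replicate numbers share no stated animal or batch, and no set of same-numbered libraries had every correlation above 0.1. By the study's methods, LAG-3-low and LAG-3-high cells were gates on the microglia of SOD1G93A mice, so libraries of both may share animals. The main fit treated them as unpaired. With the replicate block, C4b in LAG-3-high against LAG-3-low was 0.23, and 5, 4 and 2 members were called in the sorted comparisons and 5, 0, 0, 1, 0 and 0 in the others, in the order of the text. Library totals moved the share of higher calls from 23.4% to 5.24% in LAG-3-high against LAG-3-low, from 44.8% to 31.5% in LAG-3-high against WT, from 43.4% to 19.1% in the LAG-3+/+ stage contrast, from 70.6% to 89.4% in genotype at P140 (60.4% with RLE factors) and from 58.1% to 36.9% in cord. The length and GC correction moved it to 27%, 69.1%, 37.9% and 36.3% in the last 4 of these, and from 49.6% to 29.2% in LAG-3-low against WT. Apart from the fits with 1 library left out, genes called over the whole table ranged from 391 to 1450 (main 576), 2663 to 5354 (4464), 1721 to 4906 (3614), 3903 to 6644 (5118), 0 to 449 (0), 1 to 134 (2), 0 to 4281 (1908), 0 to 1301 (32) and 821 to 1759 (1331), in the same order. Fits with 1 library left out went beyond some of these ranges, with 370 genes in LAG-3-high against LAG-3-low, 1713 in the interaction and 1808 in cord. C4b and the other genes at a few CPM in microglia rest on few counts.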
